A study of Mus musculus with 6 samples.

Results

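DNA replication and S-phase genes encode the machinery that opens, copies and repackages the genome once per cell cycle. The 47 genes described here were chosen by symbol, by the known role of their proteins and not by a measured value, from the 24421 symbols of the count table. Earlier results of these data were known when they were chosen. All 47 were in the table and had enough counts to be tested. RNA came from cochlear explants of P2 mice, labelled WT with no strain given, in 2 groups of 3 samples, each a pool of 6 to 8 cochleae. According to the protocol the cochleae were kept in culture for 12 h, received neomycin at 1 mM for 6 h, and stayed in culture for 5 days more with EdU, a thymidine analogue that dividing cells build into new DNA, at 10 μM. The labels attach that protocol to every sample, and the treatment label alone separates control from neomycin, so the control samples are taken here as cultured without neomycin and with EdU. The stria vascularis anlage, the modiolus and the tectorial membrane had been removed, and what was sequenced was the RNA of all cells left in the explant.

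In G1, origins of replication are licensed by the origin recognition complex, CDC6 and CDT1, which load the MCM helicase on DNA. At the start of S phase CDC45 and the GINS complex join the helicase, polymerases and primase copy both strands, the sliding clamp PCNA tethers the polymerases, and E2F transcription factors with cyclin E drive the genes for these proteins. In the cochlea of newborn mice HCs, the sensory hair cells, no longer divide, and the SCs around them rarely do so, although other cells of an explant, such as fibroblasts, can still cycle.

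Many of these genes are known E2F targets, so E2F letters in their promoters could be foreseen, and the shares below are a description. RefSeq promoter windows of 300 bases (GRCm38.p6, from 250 bases before to 50 after the start of a transcript) were at hand for 39 of the 47 genes. The E2F core was searched on both strands in 4 spellings, which can overlap each other: TTGGCGC as the first spelling, TTCCCGC as the next one, TTCGCGC as the one after that, and TTGCCGC as the last. At least 1 match stood in 22 of the 39 windows (56.4%), against 16.2% of 11958 windows of tested genes and 9.72% of all 27025 windows. The letters CCAAT, searched in the same way, stood in 24 of the 39 windows (61.5%), against 37.9% of the tested genes' windows. A match is a run of letters and not a shown binding site. Shown here are the parts of the windows before the RefSeq start for Rpa3, which rose after neomycin, for Pola1, which fell, and for Mcm6, which had the most matches and a log2 fold change of -0.01. Each runs 5′ to 3′ on the strand of its gene toward the start, with matches in capitals, and a match on the other strand appears as its reverse complement, such as ATTGG for CCAAT.

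Rpa3: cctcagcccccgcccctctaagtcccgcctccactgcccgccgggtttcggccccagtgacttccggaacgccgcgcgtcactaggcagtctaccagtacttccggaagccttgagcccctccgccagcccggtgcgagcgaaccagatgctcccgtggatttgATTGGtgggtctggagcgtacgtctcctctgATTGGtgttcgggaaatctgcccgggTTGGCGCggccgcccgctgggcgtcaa

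Pola1: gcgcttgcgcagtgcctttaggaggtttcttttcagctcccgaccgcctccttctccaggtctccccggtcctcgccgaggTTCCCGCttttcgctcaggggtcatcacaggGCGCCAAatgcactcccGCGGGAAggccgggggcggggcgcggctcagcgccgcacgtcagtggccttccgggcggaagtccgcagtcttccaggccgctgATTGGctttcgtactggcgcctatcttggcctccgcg

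Mcm6: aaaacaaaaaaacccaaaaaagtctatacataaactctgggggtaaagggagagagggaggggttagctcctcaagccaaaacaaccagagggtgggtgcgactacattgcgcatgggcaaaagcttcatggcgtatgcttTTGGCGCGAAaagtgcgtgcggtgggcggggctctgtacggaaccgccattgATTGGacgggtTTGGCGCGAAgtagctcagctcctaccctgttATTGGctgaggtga

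The Rpa3 sequence is chr6:8259144-8259391 on the minus strand, with TTGGCGC from base -29 to base -23 before the RefSeq start. In the GENCODE annotation Rpa3 reaches to 8259173, so this match lies inside the gene as given there. The printed part has 248 of the 250 bases and stops short of the RefSeq start. The Pola1 sequence is chrX:93632156-93632405 on the minus strand and holds 3 E2F cores, and another lies after the start, in bases not printed. The Mcm6 sequence is chr1:128359706-128359955 on the minus strand, with 2 runs of TTGGCGCGAA, each of which holds overlapping cores on both strands, and it too has 1 more core after the start, not printed. Of the genes that rose after neomycin, 2 of 4 had an E2F core in the window, and of those that fell, 2 of 5 did.

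Total counts ranged from 50471116 to 66068108 per sample, and 15988 genes passed a filter on low counts. Between replicates of a group the chi-square of the counts averaged 13.7 to 46.7 per gene, more than counting noise gives, so no library was a repeat of another. The labels do not say that the pools came from separate cultures, and p-values therefore measure the spread between these samples, which may be partly technical. HC markers fell, as 11 of 12 genes passed the test and the summed level, in CPM (counts relative to library size after TMM scaling), went from 745 to 858 in control to 236 to 291 after neomycin. Since the samples are bulk tissue, fewer cells of a type and less RNA per cell cannot be told apart in any result here.

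As a whole the replication genes changed little after neomycin. A gene passed when edgeR's quasi-likelihood test, adjusted by Benjamini-Hochberg across every gene tested, gave a p under 0.05, and it was called differentially expressed when its fold change was also over 1.5. Of the 47 genes, 9 passed (19.1%), 4 higher and 5 lower, where 29.0% of all genes tested passed, 12.9% higher and 16.1% lower. None was called, against 8.84% of all genes tested (2.24% higher and 6.60% lower), and DESeq2 and limma-voom also called 0. At an unadjusted p under 0.05 there were 16 genes by edgeR, 15 by DESeq2 and 16 by limma-voom, again with 0 of them past the fold of 1.5. The log2 fold change of neomycin against control had a median of -0.05 over the 47 genes and ranged from -0.54 to 0.55, with 20 genes above 0 and 27 below. Over all genes tested the median was -0.0041, and 49.5% were above 0. For 17 genes no control value lay among the neomycin values, 8 higher and 9 lower after neomycin, where 43.5% of all genes tested had no overlap.

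Together the 47 genes took 0.113%, 0.116% and 0.108% of all counts in control samples 1, 2 and 3, and 0.106%, 0.105% and 0.109% in neomycin samples 1, 2 and 3. The groups overlapped in this share. Relative to the control mean, the log2 levels of the genes averaged -0.02, 0.06 and -0.04 across control samples 1 to 3 and -0.07, -0.09 and 0.03 across neomycin samples 1 to 3, so neomycin sample 3 lay within the control range. Control sample 2 was the highest of its group for 28 of the 47 genes and neomycin sample 3 for 30, so 1 sample in each group held most of the highest values.

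**Figure D1:**
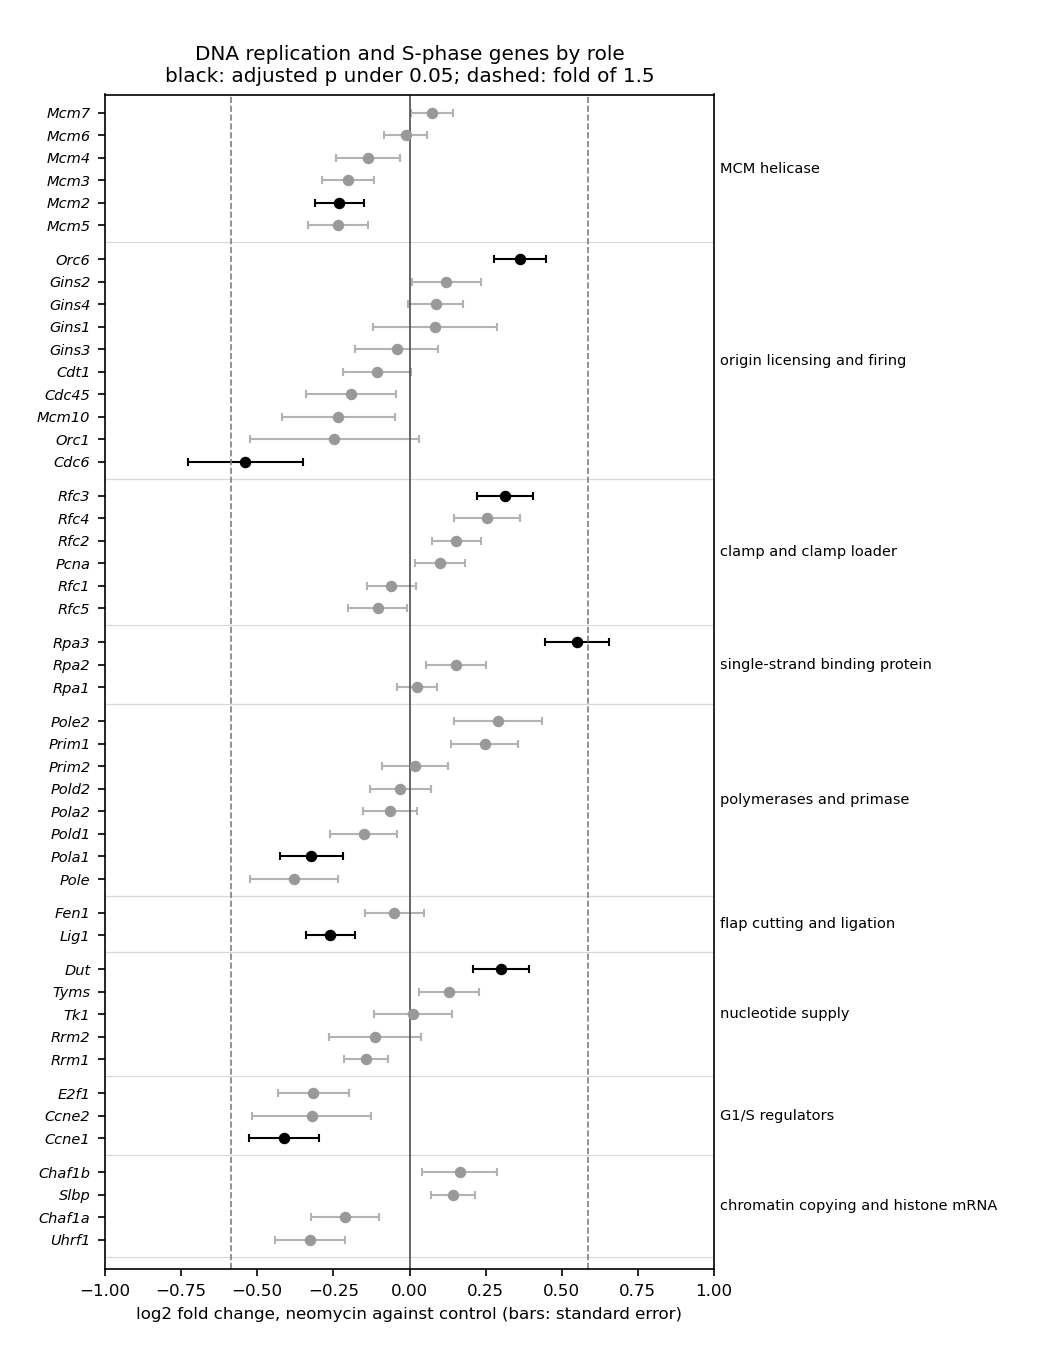
Log2 fold change of neomycin against control (x axis) for each of the 47 genes, grouped by role, with bars for the standard error and dashed lines at a fold of 1.5. The 9 black points passed at an adjusted p under 0.05, and every point lies between -0.54 and 0.55, inside the dashed lines.

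Per kilobase of exon, the levels spanned a wide range. RPKM here is the CPM of a gene divided by its merged exon length in kilobases. Merged exons join all exons that GENCODE gives for a gene, while the paper counted reads on a UCSC annotation. The lengths may therefore exceed those of the transcripts present. Pcna was the highest of the 47 genes at 39.3 ± 3.67 RPKM in control and 42.1 ± 2.62 after neomycin (SD, n = 3). Gins4 came next at 23.0 ± 1.45 RPKM in control. At the lower end stood Orc1 at 0.456 ± 0.0727, Mcm10 at 0.579 ± 0.0567 and Cdc6 at 0.975 ± 0.113 RPKM in control. In control Pold2 at 15.7 ± 1.40 and Rpa3 at 14.4 ± 0.962 RPKM lay within their spread of each other, and after neomycin Rpa3 stood at 21.1 ± 2.45 RPKM and Pold2 at 15.4 ± 1.65. All of the 3 lowest and Gins4 act in loading or firing origins.

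The origin recognition complex and the loading factors went in both directions. Orc6, on chromosome 8 of mm10 from 85299632 to 85308278, encodes the smallest subunit of the origin recognition complex. It had 25.4, 27.0 and 28.0 CPM in the control samples and 31.8, 35.1 and 36.5 CPM in the neomycin samples. All 3 neomycin values were above all 3 control values, and the log2 fold change was 0.36 with an SE of 0.08 (edgeR, adjusted p = 0.00787). Orc6 passed also when any 1 of the 6 samples was left out, with adjusted p-values up to 0.0424, and with a length correction, which takes out of every sample the trend of its values with exon length (log2 fold change 0.23, adjusted p = 0.0340). Exons of Vps35 overlap it on the opposite strand, and how reads from such overlaps were assigned is not given in the sources used here. Orc1, for the largest subunit, had -0.25 on the log2 scale (adjusted p = 0.538) with 64 to 95 counts per sample. The ratio of Orc6 to Orc1 counts within a sample, which is not a ratio of transcripts because it is not per length, was 19.2, 14.8 and 17.3 in control and 20.6, 32.4 and 26.5 after neomycin.

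Cdc6, on chromosome 11 from 98907801 to 98923940, encodes the ATPase that recruits CDT1 and the MCM complex to origins. Its levels were 5.67, 5.14 and 4.48 CPM in control and 4.12, 2.73 and 3.69 CPM after neomycin. Every neomycin value was below every control value, neomycin sample 2 the farthest, and Cdc6 fell by 0.54 on the log2 scale, with an SE of 0.19 (edgeR, adjusted p = 0.0491). The adjusted p rose to 0.153 without control sample 1, 0.128 without control sample 2, 0.190 without neomycin sample 2, 0.0870 without neomycin sample 3 and 0.0727 with the length correction, where the log2 fold change was -0.49, and it also lay just above 0.05 with other scalings (0.0506 with RLE and 0.0562 with upper quartile) and with a stricter filter on low counts (0.05008). Of the other firing and licensing genes, none passed. Cdt1, which loads MCM together with CDC6, had a log2 fold change of -0.11, and Mcm10 and Cdc45, which act when the helicase fires, had -0.23 and -0.19. The GINS genes Gins1, Gins2, Gins3 and Gins4, for the ring that joins CDC45 to the helicase, had 0.08, 0.12, -0.04 and 0.09, and the groups overlapped for all of them. With the length correction Gins1 and Gins4 turned to -0.17 and -0.19.

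The MCM genes encode the 6 subunits of the replicative helicase, and 5 of the 6 had a log2 fold change below 0. Mcm2, on chromosome 6 from 88883474 to 88898780, had 29.4, 28.6 and 28.5 CPM in control and 23.3, 25.7 and 24.8 CPM after neomycin. The control samples lay close together and above all neomycin samples, and Mcm2 fell by 0.23 on the log2 scale, with an SE of 0.08 (edgeR, adjusted p = 0.0489). This call was lost when any 1 sample was left out, with adjusted p-values of 0.129, 0.114 and 0.0682 without control samples 1, 2 and 3 and 0.139, 0.0886 and 0.114 without neomycin samples 1, 2 and 3, and it was 0.2995 with the length correction. It was also 0.0559 with DESeq2, 0.0541 with RLE scaling, 0.0696 with upper quartile scaling and 0.0610 with no filter on low counts. Mcm3 and Mcm5 had log2 fold changes of -0.20 and -0.24 with no overlap between the groups, at adjusted p-values of 0.0984 and 0.0915 (edgeR). Mcm4 had -0.14, Mcm6 -0.01 and Mcm7 0.07, with overlapping groups. Within a sample the ratio of Mcm2 to Mcm6 counts was 0.626, 0.601 and 0.616 in control and 0.493, 0.584 and 0.511 after neomycin, lower in all 3 neomycin samples. In the ratios given here the first gene was mostly one that had passed, so a ratio partly repeats that gene's own change. No ratio was tested or corrected for exon length.

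**Figure D2:**
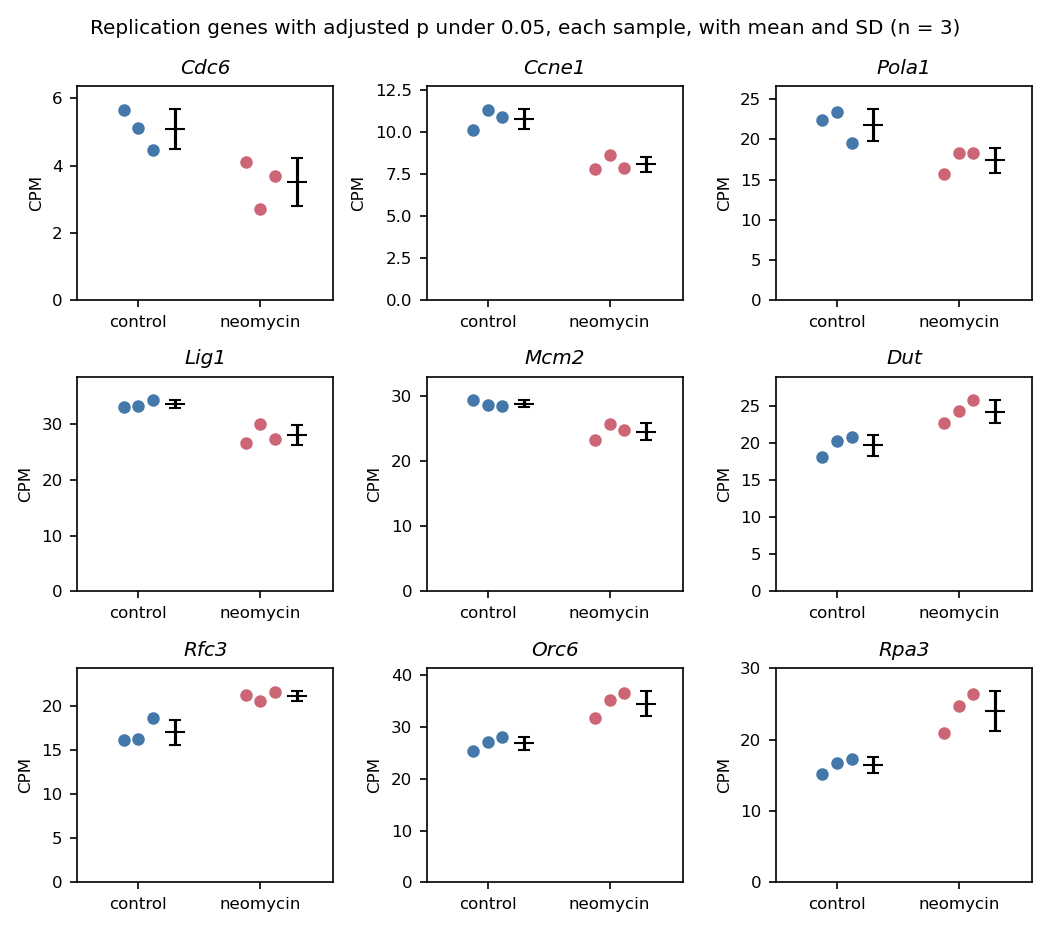
Level in CPM (y axis, starting at 0) of the 9 genes with an adjusted p under 0.05 in each of the 3 control and 3 neomycin samples, with the mean and SD beside the points. The points of the groups do not overlap in any of the 9 panels, with 5 genes lower and 4 higher after neomycin.

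The single-strand binding protein RPA coats unwound DNA as a trimer, and all 3 of its genes had a log2 fold change above 0. Rpa3, for the smallest subunit, on chromosome 6 from 8255936 to 8259173, rose the most of the 47 genes. It had 15.2, 16.7 and 17.3 CPM in control and 21.0, 24.7 and 26.4 CPM after neomycin. Every neomycin sample was above every control sample, and the log2 fold change was 0.55 with an SE of 0.10 (edgeR, adjusted p = 0.00267). Rpa3 passed without any 1 of the 6 samples, with adjusted p-values up to 0.0186, but its merged exons are short (1136 bases), and with the length correction the log2 fold change was 0.24 (adjusted p = 0.0548). Rpa1 and Rpa2, for the large and the middle subunit, had log2 fold changes of 0.02 (adjusted p = 0.814) and 0.15 (adjusted p = 0.267). The ratio of Rpa3 to Rpa1 counts was 0.2241, 0.2367 and 0.2498 in control and 0.2848, 0.3589 and 0.3835 after neomycin, higher in all 3 neomycin samples.

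The clamp loader RFC opens the PCNA ring and sets it on DNA. Rfc3, on chromosome 5 from 151642756 to 151651242, had 16.1, 16.3 and 18.5 CPM in control and 21.2, 20.5 and 21.6 CPM after neomycin. The groups did not overlap, and the log2 fold change was 0.31 with an SE of 0.09 (edgeR, adjusted p = 0.0246), or 0.28 with the length correction (adjusted p = 0.0334). The adjusted p rose to 0.0728 without control sample 1, 0.0913 without control sample 2, 0.0638 without neomycin sample 2 and 0.0790 without neomycin sample 3. Rfc4 had 0.26 (adjusted p = 0.0985) with no overlap of the groups, Rfc2 0.15, Rfc1 -0.06 and Rfc5 -0.10, and exons of other genes overlap Rfc2, Rfc4 and Rfc5 on the opposite strand. With the length correction Rfc4 had 0.0036 (adjusted p = 0.985), while Rfc2 passed, at 0.24 (adjusted p = 0.0477). Rfc2 passed in 3 of 15 alternative fits, with an adjusted p up to 0.439, without neomycin sample 3. Pcna, a common marker of cycling cells, had 0.10 on the log2 scale (adjusted p = 0.389) with overlapping groups, -0.04 with the length correction, and 2 pseudogenes carry its name, which could share its reads.

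The polymerases and primase held 1 gene that passed of 8. Pola1, the catalytic subunit of DNA polymerase alpha, which extends the primers that start each strand, lies on chromosome X from 93304767 to 93632155. Its levels were 22.4, 23.4 and 19.6 CPM in control and 15.6, 18.3 and 18.3 CPM after neomycin. Control sample 3, the lowest control, was still above all neomycin samples, and Pola1 fell by 0.32 on the log2 scale, with an SE of 0.10 (edgeR, adjusted p = 0.0340). Only without control sample 3 did it keep an adjusted p under 0.05 among the 6 fits with a sample left out. The others gave 0.0853 and 0.137 without control samples 1 and 2, and 0.105, 0.0696 and 0.0542 without neomycin samples 1, 2 and 3. Its merged exons are long (8813 bases), and with the length correction the log2 fold change was -0.16 (adjusted p = 0.256).

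The partner of Pola1 in the same complex, Pola2, had -0.06, and the primase genes Prim1 and Prim2 had 0.25 (adjusted p = 0.109) and 0.02. The ratio of Pola1 to Prim1 counts was 1.97, 2.04 and 1.76 in control and 1.28, 1.41 and 1.22 after neomycin, lower in every neomycin sample. For polymerase epsilon, which copies the leading strand, the catalytic subunit gene Pole had -0.38 (adjusted p = 0.0650, or 0.0395 with DESeq2 and 0.0445 with limma-voom) and the accessory subunit gene Pole2 had 0.29 (adjusted p = 0.151). The ratio of Pole to Pole2 counts went from 5.61, 5.40 and 4.96 in control to 4.37, 3.18 and 2.56 after neomycin. Pole has the longest merged exons of the 47 genes (11160 bases) and Pole2 has 2881, and with the length correction Pole had -0.18 (adjusted p = 0.309). The polymerase delta genes Pold1 and Pold2, for the enzyme that copies the lagging strand, had -0.15 and -0.03 with overlapping groups.

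Okazaki fragments, the short pieces of the lagging strand, are trimmed by FEN1 and joined by LIG1. Lig1, on chromosome 7 from 13277283 to 13311433, had 32.9, 33.2 and 34.3 CPM in control and 26.62, 29.998 and 27.20 CPM after neomycin. The 3 control samples were above all neomycin samples, and Lig1 fell by 0.26 on the log2 scale, with an SE of 0.08 (edgeR, adjusted p = 0.0300), with -0.26 after the length correction (adjusted p = 0.0250). The adjusted p rose to 0.0557, 0.0810 and 0.0603 without control samples 1, 2 and 3, and 0.0847 and 0.102 without neomycin samples 1 and 3. Exons of Zswim9 overlap Lig1 on the opposite strand. Fen1 had -0.05 (adjusted p = 0.733), and the ratio of Lig1 to Fen1 counts overlapped between the groups.

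Of the nucleotide supply genes, Dut alone passed. Its enzyme breaks down dUTP, which keeps uracil out of new DNA, and the gene lies on chromosome 2 from 125247190 to 125258608. Dut had 18.1, 20.2 and 20.7 CPM in control and 22.6, 24.3 and 25.7 CPM after neomycin. No control value reached the neomycin values, and the log2 fold change was 0.30 with an SE of 0.09 (edgeR, adjusted p = 0.0297). With the length correction it was 0.17 (adjusted p = 0.159), and the adjusted p was 0.0954 and 0.0677 without control samples 1 and 2 and 0.0945 and 0.117 without neomycin samples 2 and 3. Tyms, which makes the thymidine nucleotide, had a log2 fold change of 0.13, and Tk1, which salvages thymidine and also phosphorylates EdU, had 0.01. Rrm1 and Rrm2, the subunits of ribonucleotide reductase, had -0.14 and -0.11, and none of these 4 passed. Rrm1 was lower in all 3 neomycin samples, but with the length correction it turned to 0.06, and a pseudogene carries the name of Tyms and could share its reads. The ratio of Dut to Tyms counts overlapped between the groups.

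The 3 regulators of the G1/S transition all had a log2 fold change below 0. Ccne1, which encodes cyclin E1, the partner of CDK2 at S-phase entry, lies on chromosome 7 from 38097984 to 38107534. It had 10.1, 11.3 and 10.9 CPM in control and 7.80, 8.61 and 7.84 CPM after neomycin. Every neomycin sample lay below every control sample, and Ccne1 fell by 0.41 on the log2 scale, with an SE of 0.11 (edgeR, adjusted p = 0.0186), or by 0.52 with the length correction (adjusted p = 0.00475). The adjusted p rose to 0.0790 without control sample 2 and 0.0630 without neomycin sample 3. Ccne2, for cyclin E2, had -0.32 (adjusted p = 0.238) at 156 to 282 counts per sample, and the ratio of Ccne1 to Ccne2 counts overlapped between the groups. E2f1, for an activating E2F factor, had -0.32 (adjusted p = 0.0578) with no overlap of the groups, and it passed with the length correction, at -0.39 (adjusted p = 0.0242). Of 15 alternative fits E2f1 passed in 4, and its adjusted p was up to 0.174, without control sample 2.

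Genes for copying chromatin behind the fork did not pass. Slbp, which binds the stem-loop at the end of histone mRNAs, had the highest CPM of this group, with 41.9, 47.7 and 45.2 CPM in control and 49.5, 50.7 and 48.6 CPM after neomycin. All neomycin samples were above the control samples by a small margin, and the log2 fold change was 0.14 with an SE of 0.07 (edgeR, adjusted p = 0.163), or 0.23 with the length correction (adjusted p = 0.0326). Slbp passed in 2 of 15 alternative fits, with an adjusted p up to 0.397, without control sample 1. Uhrf1, which guides DNA methylation onto new strands, was singled out after its values were seen because its adjusted p was 0.05001, just above the threshold, and it passed with DESeq2 (0.0406) and with no filter on low counts (0.0391). It did not pass with limma-voom (0.0529), RLE scaling (0.0520), upper quartile scaling (0.0621) or the length correction (0.0505). Of 15 alternative fits it passed in 7, and its adjusted p was up to 0.201, without neomycin sample 2. It had 21.4, 21.2 and 16.9 CPM in control and 17.1, 14.1 and 16.3 CPM after neomycin, so neomycin sample 1 was above control sample 3, and the log2 fold change was -0.33 with an SE of 0.12. Chaf1a and Chaf1b, subunits of the histone chaperone CAF-1, had -0.21 and 0.16 with overlapping groups.

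**Figure D3:**
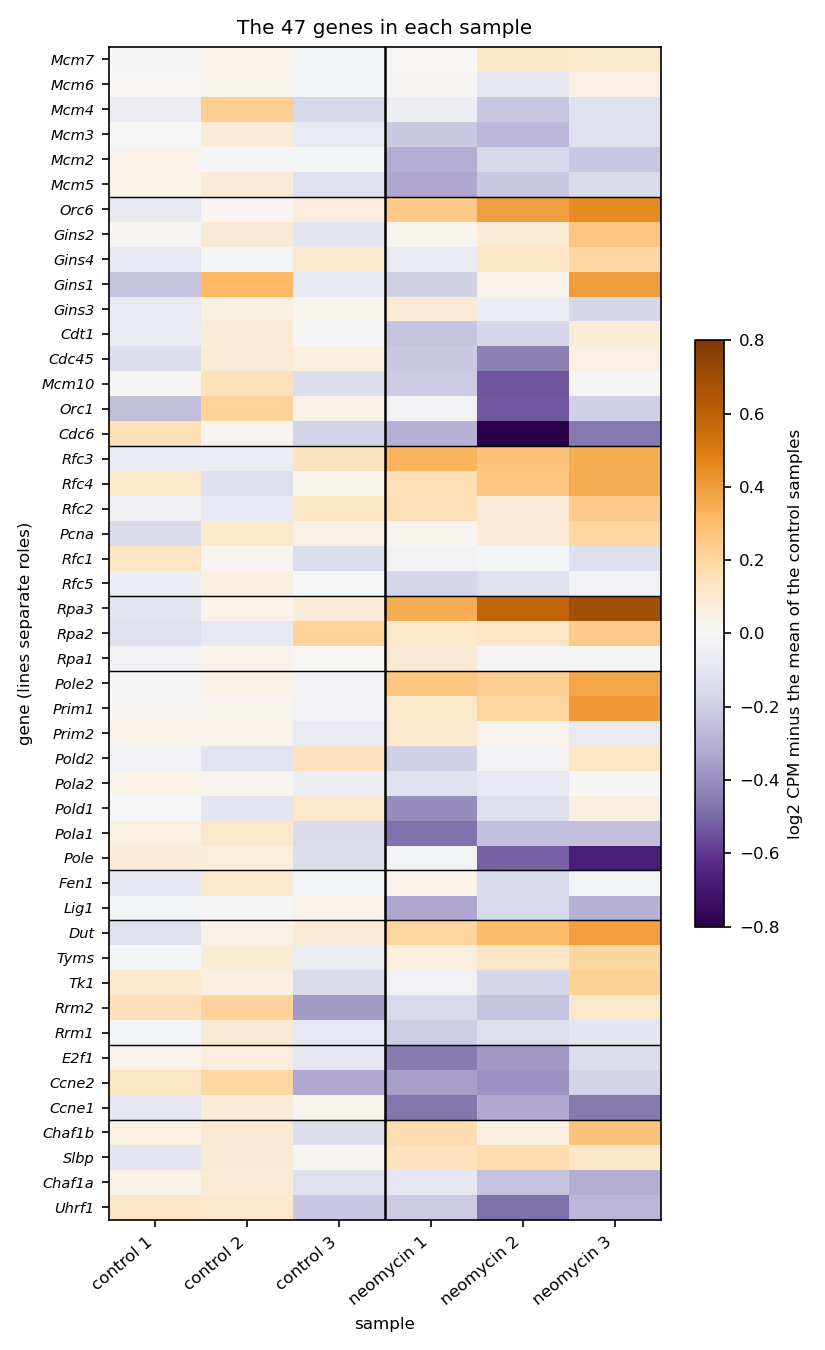
Log2 CPM minus the mean of the control samples (colour, from -0.8 to 0.8) for the 47 genes, in the order of their roles, in the 3 control and 3 neomycin samples. Rpa3 and Orc6 stand out as higher in all 3 neomycin samples, Cdc6 and Ccne1 as lower, and for 30 of the 47 genes the groups overlap.

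The fold changes of the 47 genes varied with exon length, as those of all genes did. Over the 47 genes, Pearson's r between log2 fold change and log2 merged exon length was -0.442 and Spearman's rho -0.341. Over 15862 tested genes with a length they were -0.271 and -0.406. These correlations are across genes that share the same 6 libraries and are given as a description. All 47 genes had a length, with a median of 3993 bases against 4255 for all genes. The median log2 fold change was -0.03 in the 23 shorter of the 47 genes and -0.08 in the 24 longer ones, while the shorter of all genes, split at the same length, had 0.14 and the longer -0.11. With the trend on length removed from each sample, 7 of the 47 genes passed, 4 higher (Orc6, Rfc2, Rfc3 and Slbp) and 3 lower (Ccne1, E2f1 and Lig1), against 23.5% of all genes. Of the 9 genes that passed without the correction, Rpa3, Dut, Pola1, Mcm2 and Cdc6 no longer did, and of these Cdc6 kept a log2 fold change of -0.49 against -0.54 without the correction. What lies behind the trend on length was not tested.

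**Figure D4:**
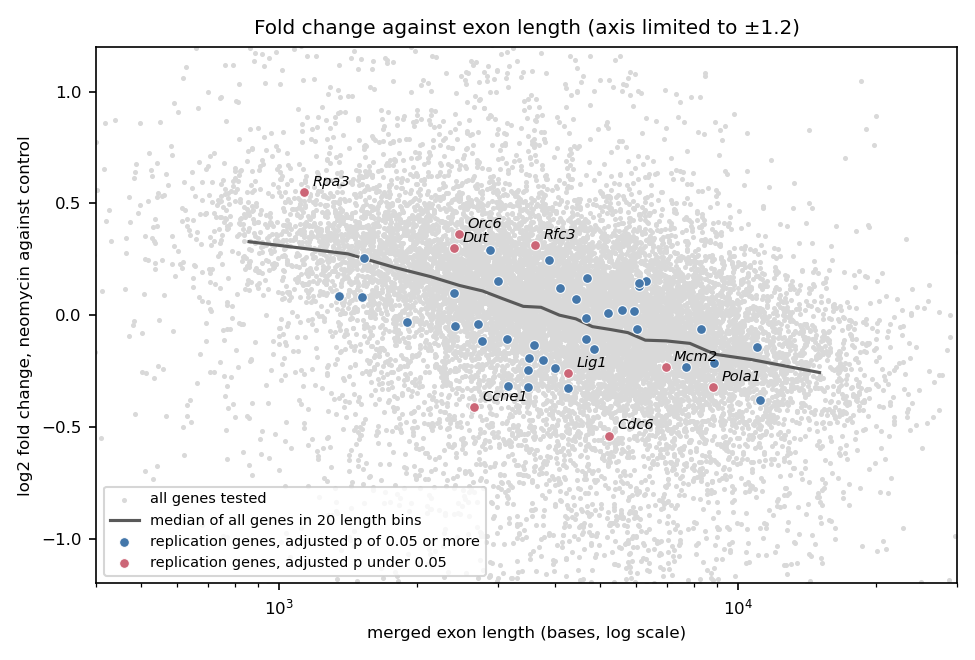
Log2 fold change of neomycin against control (y axis, limited to 1.2 on either side of 0) against merged exon length in bases (x axis, log scale) for all genes tested in grey, the 47 genes in colour, and the median of all genes in 20 length bins as a line. Rpa3 at 1136 bases lies above 0 and Pola1 at 8813 bases lies below 0, as the line does at those lengths.

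Other genes of the pathway, none of them among the 47, also went in both directions. Of 35 other replication factors, 2 were higher and 3 lower at an adjusted p under 0.05, with a median log2 fold change of -0.07. That is 14.29% of the list, below the 29.0% of all genes tested that passed. Rnaseh2c and Rnaseh2b, subunits of the enzyme that removes RNA from DNA, rose by 0.43 (adjusted p = 0.00322) and 0.46 (adjusted p = 0.00941) on the log2 scale. Mcm9, a helicase relative that works in repair, had -0.48 (adjusted p = 0.0150), Topbp1, which activates origins and the checkpoint kinase ATR, -0.30 (adjusted p = 0.0201), and Donson, a factor of helicase assembly, -0.33 (adjusted p = 0.0354). Of 35 other S-phase and G1/S genes, 3 were higher and 6 lower (25.71%), with a median of -0.14. The higher ones were the histone chaperone genes Nasp and Rbbp7, at 0.26 (adjusted p = 0.0107) and 0.26 (adjusted p = 0.0205), and Dctpp1, for an enzyme that breaks down dCTP, at 0.32 (adjusted p = 0.0316). Merged exons have 676 bases in Dctpp1 and 1715 in Rnaseh2c, against 2909 in Rbbp7, 6243 in Rnaseh2b and 7518 in Nasp. Values with the length correction are not given for the genes of these lists. Dnmt1, the methyltransferase that copies methylation onto new strands, fell from 77.8 ± 7.40 to 57.3 ± 2.57 CPM (SD, n = 3), or by 0.44 on the log2 scale (adjusted p = 0.00225). E2f7 and E2f8, which encode E2F repressors, were the 2 of this list past a fold of 1.5. They had log2 fold changes of -0.99 (adjusted p = 0.0234) and -0.94 (adjusted p = 0.0130) from edgeR. Also lower were E2f3 and E2f2, for other E2F factors, at -0.35 (adjusted p = 0.0102) and -0.43 (adjusted p = 0.0403), and Supt16 at -0.35 (adjusted p = 0.009115). E2f7 and E2f2 were singled out after their values were seen.

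Mitosis and G2/M genes act after replication, in chromosome condensation, the spindle and division. Of 22 such genes, 10 were lower at an adjusted p under 0.05 (45.45%, against 16.1% of all genes tested) and 0 higher (edgeR, and 0 higher also at an unadjusted p under 0.05). Their median log2 fold change was -0.34, whereas 5 of the 47 replication genes were lower and their median was -0.05. The difference between the lists, which were chosen with earlier results of these data known, was not tested. Mki67, which encodes the proliferation marker Ki-67, had 39.1, 35.8 and 24.9 CPM in control and 24.2, 22.2 and 26.9 CPM after neomycin, so control sample 3 lay among the neomycin samples. Its log2 fold change was -0.45 (adjusted p = 0.0334, edgeR). Top2a, which untangles sister chromosomes, had -0.39 (adjusted p = 0.0222), and Bub1b and Cenpf, of the spindle checkpoint and the kinetochore, were past a fold of 1.5 at -0.62 (adjusted p = 0.00119) and -0.65 (adjusted p = 0.0100). Cdk1, the kinase that starts mitosis, had -0.07 (adjusted p = 0.651). The count of 10 lower genes was 3 without control sample 1, 1 without control sample 2, 1 without neomycin sample 2, 7 with the length correction, and between 7 and 11 without any other sample.

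**Figure D5:**
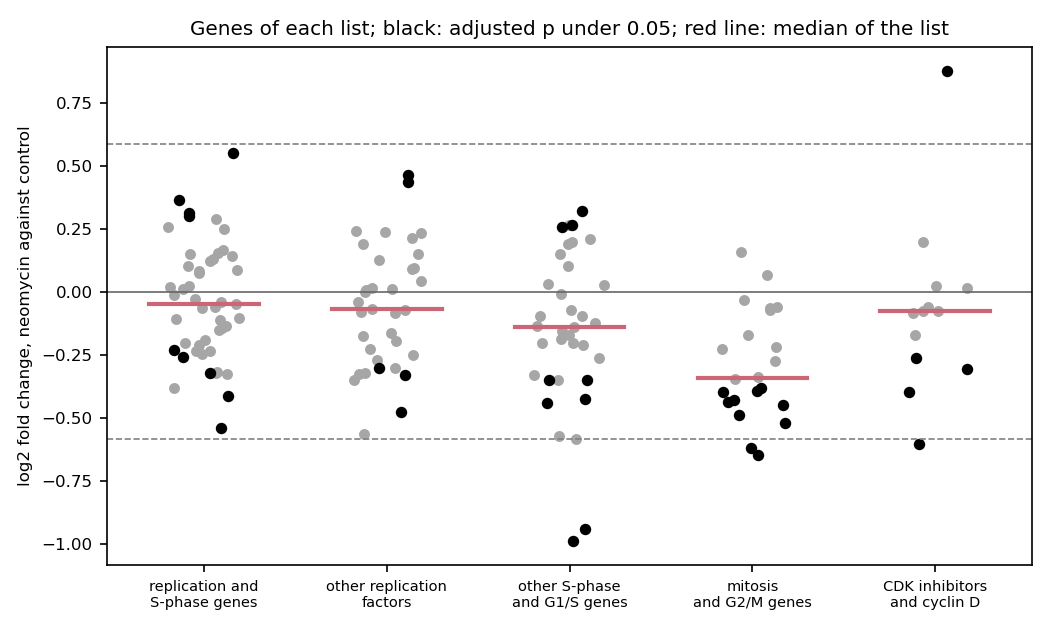
Log2 fold change of neomycin against control (y axis) for each gene of the 47 replication and S-phase genes and of 4 other lists, with genes at an adjusted p under 0.05 in black, the median of each list as a red line and a fold of 1.5 dashed. The medians are -0.05 for the 47 genes and -0.34 for mitosis and G2/M genes.

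Among 13 CDK inhibitor, cyclin D and pocket protein genes, which control whether E2F is released, 1 was higher and 4 were lower. Of all genes tested, 12.9% were higher and 16.1% lower. Cdkn1c, for the inhibitor p57, had 252, 177 and 199 CPM in control and 372, 381 and 400 CPM after neomycin. All neomycin samples were well above the controls, with a log2 fold change of 0.88 with an SE of 0.11 (edgeR, adjusted p = 0.000209). Cdkn1b, for p27, the inhibitor known to hold HCs and SCs out of the cycle, had -0.06 (adjusted p = 0.603), and Cdkn1a, for p21, had 0.02 (adjusted p = 0.868). Ccnd1 and Ccnd2, for D cyclins, had -0.40 (adjusted p = 0.00834) and -0.61 (adjusted p = 0.000741), each with all neomycin samples below the controls. The same held for the inhibitor gene Cdkn2d, at -0.26 (adjusted p = 0.0300, edgeR), and the pocket protein gene Rbl2, at -0.31 (adjusted p = 0.01505).

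Markers of other cell types were set beside the same comparison, in which 12.9% of all genes tested passed higher and 16.1% lower. SC markers had 3 genes higher and 3 lower of 12, at a summed level of 6806 to 8328 CPM in control and 9199 to 12065 CPM after neomycin. Most of that sum was Tectb and S100a1, singled out after their values were seen, and the other 10 markers summed to 1668 to 1709 CPM in control and 1666 to 1861 CPM after neomycin. Macrophage markers had 5 higher and 1 lower of 12, at 106 to 123 CPM in control and 128 to 163 CPM after neomycin. Of the higher ones, Tyrobp, C1qa, C1qb and Cd68 have short merged exons (667 to 1257 bases) and Mrc1 long ones (6371 bases). Ptprc (18313 bases) and Csf1r (5774 bases) had log2 fold changes of 0.20 and -0.05 and did not pass. Values with the length correction are not given for marker lists, and the part of the length trend in them was not tested. Endothelial markers had 7 lower of 10, with Pecam1 at -2.71 (adjusted p = 2.67e-05, edgeR), although the summed level, 312 to 354 CPM in control and 298 to 351 CPM after neomycin, overlapped. Emcn, singled out for the same reason, made up most of it at 252 CPM in control and 273 CPM after neomycin on average, and without it the sum was 74.0 to 95.5 CPM in control and 51.1 to 53.3 CPM after neomycin. Mesenchymal markers had 2 higher and 4 lower of 10 (6439 to 7081 CPM in control, 6726 to 6945 CPM after neomycin), Schwann cell and glial markers 1 higher and 2 lower of 10 (654 to 731 and 685 to 705 CPM), and neuronal markers 1 higher and 4 lower of 10 (198 to 297 and 180 to 209 CPM). The groups overlapped in the mesenchymal, the Schwann and glial, and the neuronal sums. Without Syt1, its gene of highest mean CPM, the neuronal sum was 146 to 232 CPM in control and 112 to 124 CPM after neomycin. The mesenchymal sum overlapped without Lum, but without Lum and Col3a1 it was 2352 to 2718 CPM in control and 2722 to 2846 CPM after neomycin. Without Sox10 and S100b the Schwann and glial sum still overlapped. The genes left out here were also singled out after their values were seen. No gene of these lists was at 0 in all samples. The part of these shifts in markers, those of HCs as well, in the values of the replication genes was not tested.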

How the data were processed

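The authors deposited raw counts, unnormalized whole numbers of reads for each symbol, from libraries that an Illumina mRNA kit made from total RNA, and every column belonged to a mapped sample. Per the submitters' processing notes, CASAVA 1.8, Trimmomatic 0.23, HISAT2, HTSeq and the mm10 build were used. The strand setting of the counting is not given in the sources used here. Total counts were 50471116 to 66068108 per sample, and counts up to 3 were taken as the floor, which all 47 genes exceeded in every sample.

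The 47 genes, their roles and the other lists were chosen with earlier results of these data known. Genes were filtered with filterByExpr (15988 kept) and scaled by TMM in edgeR 4.0.16 (R 4.3.3), and neomycin was tested against control by the quasi-likelihood test over all genes with no covariate, with Benjamini-Hochberg adjustment. The SE of a log2 fold change is its size over the square root of F. Thresholds were an adjusted p of 0.05 and a fold of 1.5. The named genes were the members that passed, the member of highest mean CPM in a role with none, and up to 4 genes in each direction of each other list, with Mki67, Top2a, Cdk1, Cdkn1a, Cdkn1b and Ccnd1 in any case; of each marker list the first 2 genes could be named. Exon lengths and positions came from GENCODE vM21 on the same build (23376 symbols matched directly, 669 through an older symbol), and promoters from RefSeq. RPKM and the length correction rest on these lengths, which were not taken from the annotation used for counting. Exons of another gene overlap those of Mcm7, Orc1, Orc6, Cdc45, Gins2, Rfc2, Rfc4, Rfc5, Rpa1, Pole, Pole2, Fen1, Lig1, Tk1, Ccne2, Chaf1a and Slbp, whose counts are less certain. Promoters were searched over the whole window and printed only up to the RefSeq start, without bases more than 30 inside a gene as GENCODE gives it.

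Alternatives were DESeq2 1.42.0, limma-voom (limma 3.58.1), RLE and upper quartile scaling, no filter, a filter of 1 CPM in 3 samples, the replicate number as a block, a correction for exon length (lowess, span 0.3) with and without that block, and each sample left out in turn. The code was tested on simulated data. Figures were drawn with matplotlib 3.10.9.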

Additional observations from a re-analysis of the deposited data

How the results depend on the processing

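Over the alternatives that keep all 6 samples, 7 to 12 of the 47 genes passed at an adjusted p under 0.05, against 9 in the reported fit, with 4 or 5 higher and 3 to 8 lower. The count of lower genes, 5, was 3 with RLE scaling, 3 with upper quartile scaling, 3 with the gene length correction and 8 with the replicate block. With 1 sample left out, the count that passed ran from 2 to 10, the higher genes from 2 to 6 and the lower genes from 0 to 4; it was 3 without control sample 1, 2 without control sample 2, 4 without neomycin sample 2 and 3 without neomycin sample 3. The share of all genes that passed moved as well, from 29.0% to between 15.6% and 33.0%. The count past the fold of 1.5, 0 in every alternative that kept all samples, ran from 0 to 3 with a sample left out, with 2 genes (Rpa3 and Cdc6) without control sample 3 and 3 (also Pole) without neomycin sample 1. The median log2 fold change of the 47 genes stayed between -0.10 and -0.01 in all of these fits.

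Whether samples with the same replicate number form pairs is not stated and cannot be decided from these values. Over all genes their deviations correlated at 0.17, 0.03 and 0.09, against -0.13 to 0.03 for different numbers. For control sample 2 the values were close, 0.026 with neomycin sample 2 and 0.032 with neomycin sample 3. Over the 47 genes the same numbers gave 0.20, -0.35 and -0.00099. The reported fit treats the samples as unpaired. With the replicate block, 12 of the 47 genes passed, with Pole, E2f1 and Uhrf1 added to the lower ones, and 6014 of all genes against 4629. With the block and the length correction 11 passed, and 6 mitosis genes were lower against 10. With 1 sample left out, that count lay between 1 and 11 and the median of the mitosis list, -0.34, lay between -0.45 and -0.22.

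Several genes that had not passed changed sign. Mcm6 had 0.0091 with upper quartile scaling, 0.013 with the length correction and 0.012 with block and length correction, and Tk1 -0.00089 with limma-voom. The length correction turned Gins1 to -0.17, Gins4 to -0.19, Pcna to -0.035, Rfc1 to 0.024, Pola2 to 0.082 and Rrm1 to 0.057, and with the block as well they were -0.17, -0.19 (adjusted p = 0.0467), -0.033, 0.025, 0.080 and 0.056. With a sample left out, ranges across 0 were -0.089 to 0.26 for Gins1, -0.12 to 0.011 for Rfc1, -0.042 to 0.027 for Mcm6, -0.089 to 0.0071 for Fen1, -0.022 to 0.062 for Prim2, -0.11 to 0.053 for Pold2, -0.10 to 0.097 for Tk1, -0.0085 to 0.041 for Rpa1, and -0.11 to 0.019 for Gins3. The causes of these sign changes were not tested beyond the settings named.

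With 3 samples in each group, a gene that did not pass is not shown to be unchanged.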
